A study of Mus musculus with 15 samples.

Results

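The fibrillar collagens described here are Col1a1, Col1a2, Col3a1, Col5a1, Col5a2 and Col5a3, chosen by symbol as 6 of the 47729 features in the deposited gene count table, and followed through all 15 of its columns. RNA came from aortic macrophages sorted as F4/80+ CD64+ and separated into cells positive and negative for the olfactory receptor Olfr2. Libraries were made with Smart-Seq2, a low-input method that amplifies full-length cDNA by PCR. Both groups came from female mice of the same genotype, labelled Apoe dko and written Apoe-/- in the protocols. These mice lack apolipoprotein E and had 4 weeks of a high fat diet. The protocols describe technical replicate sorts of 100 to 200 cells from the pooled aortas of 4 mice, so p-values measure the spread between sorts and not between animals. The libraries labelled Olfr2+ were numbered 2, 3 and 4 (10 columns) and those labelled Olfr2- were numbered 1, 3 and 4 (5 columns). A letter after the number was read as a repeat of that sample, giving 3 summed samples against 3.

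Total counts divided the columns into sets. The 7 columns over 60 M counts (M, 1000000) were all labelled Olfr2+ (2A to 2D and 3A to 3C) and held 76.0 to 95.6 M each. The 3 other Olfr2+ columns (3D, 4A and 4B) held 29.9 to 37.6 M, and the 5 Olfr2- columns held 30.5 to 53.2 M. Both labels occur only in the columns under 60 M, so a difference over all columns is also in part one between depth sets, and results that rest on the deep columns are also given without them. Olfr2 RNA itself ran opposite to the sort, with counts of 1, 9 and 8 for Olfr2+ samples 2, 3 and 4 and of 76, 34 and 35 for Olfr2- samples 1, 3 and 4, so directions are between libraries labelled Olfr2+ and Olfr2-.

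Fibrillar collagens are long triple helices that assemble outside the cell into the fibrils that bear tension in tissue. Their chains are hydroxylated and folded in the endoplasmic reticulum, secreted as procollagen, trimmed at both ends, packed into fibrils and cross-linked by lysyl oxidases. In the arterial wall they are made mainly by fibroblasts and smooth muscle cells, and in atherosclerosis they form much of the fibrous cap. Macrophages are better known in this tissue for taking up and degrading collagen than for making it.

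All 6 chains were detected in all 15 columns. In the Olfr2+ columns over 60 M, the 6 chains together took 1.13 to 2.03% of all counts, against 0.0863 to 0.192% in the Olfr2+ columns under 60 M and 0.0714 to 0.191% in the Olfr2- columns. The mean of the sum was 12.4 times as high in the deep as in the other Olfr2+ columns, and those 3 remaining Olfr2+ columns lay in the range of the Olfr2- columns or just above it. In pooled cells such as these, more collagen-expressing cells and more collagen RNA per cell cannot be told apart.

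Col1a1 encodes the chain that makes up most of type I collagen, the most abundant collagen of the body. It was at 3636, 2183 and 291 CPM (counts per 1000000 counts of the sample) in Olfr2+ samples 2, 3 and 4, and at 68.1, 513 and 263 CPM in Olfr2- samples 1, 3 and 4. Olfr2+ samples 2 and 3 were above every Olfr2- sample, while Olfr2+ sample 4 lay inside the Olfr2- range. Its partner Col1a2, the other chain of type I collagen, was at 8244, 5680 and 736 CPM in Olfr2+ samples 2, 3 and 4, and at 469, 588 and 994 CPM in Olfr2- samples 1, 3 and 4. The order of samples was similar, with Olfr2+ sample 4 below the highest Olfr2- sample. Col3a1 encodes the only chain of type III collagen, which is plentiful in distensible tissue such as artery, and whose mutations in humans cause vascular Ehlers-Danlos syndrome. It was at 5033, 3235 and 360 CPM in Olfr2+ samples 2, 3 and 4, and at 144, 417 and 304 CPM in Olfr2- samples 1, 3 and 4, again with only Olfr2+ sample 4 inside the Olfr2- range.

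Type V collagen is the minor fibrillar collagen that starts fibrils and limits their width, and mutations of its main chains in humans cause classical Ehlers-Danlos syndrome. Col5a2 was at 273, 234 and 11.9 CPM in Olfr2+ samples 2, 3 and 4, and at 9.51, 18.6 and 11.3 CPM in Olfr2- samples 1, 3 and 4. It had the same pattern as the type I and III chains, with Olfr2+ sample 4 within the Olfr2- range. Col5a1 was at 230.4, 225.0 and 4.996 CPM in Olfr2+ samples 2, 3 and 4, and at 15.6, 66.2 and 21.2 CPM in Olfr2- samples 1, 3 and 4, so Olfr2+ sample 4 was the lowest of the 6. Col5a3, a type V chain of narrower tissue distribution, was at 3.47, 14.1 and 0.934 CPM in Olfr2+ samples 2, 3 and 4, and at 7.22, 2.57 and 3.80 CPM in Olfr2- samples 1, 3 and 4. It differed from the other chains in that only Olfr2+ sample 3 exceeded the Olfr2- samples. For none of the 6 chains did the 3 Olfr2+ samples all lie above the 3 Olfr2- samples, a pattern that 6.21% of all genes tested had.

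By column, Col1a1 ranged from 2280 to 4184 CPM (median 3068) in the deep Olfr2+ columns, from 166 to 315 CPM (median 260) among the other Olfr2+ columns and from 68.1 to 658 CPM (median 269) in the Olfr2- columns. Col1a2 ranged from 4898 to 10489 CPM (median 8277), from 489 to 1048 CPM (median 499.7) and from 434 to 1361 CPM (median 681) in the same 3 sets of columns. Col3a1 ranged from 3425 to 6246 CPM (median 4066) in the deep Olfr2+ columns, from 70.0 to 594 CPM (median 173) among the other Olfr2+ columns and from 144 to 489 CPM (median 350) in the Olfr2- columns. For these 3 genes every deep column exceeded every other column, whatever its label. The type V chains were less uniform. Col5a2 ranged from 151 to 600.4 CPM (median 180), from 4.34 to 12.9 CPM (median 10.6) and from 9.51 to 20.8 CPM (median 11.4) in deep Olfr2+, other Olfr2+ and Olfr2- columns, without overlap of the deep columns with the rest. Col5a1 ranged from 62.6 to 446 CPM (median 225) in the deep Olfr2+ columns, but column 3D of the other Olfr2+ set reached 120.5 CPM and Olfr2- column 3A reached 91.4 CPM. Col5a3 ranged from 0.126 to 29.5 CPM (median 5.68) in the deep Olfr2+ columns, from 0.825 to 2.60 CPM (median 1.07) among the other Olfr2+ columns and from 0.5261 to 7.22 CPM (median 5.24) in the Olfr2- columns, so its deep columns spanned the whole range of the others. In all, 4 of the 6 chains had each of the 7 deep columns above each of the other 8, which 1.41% of all genes tested did.

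**Figure D1:**
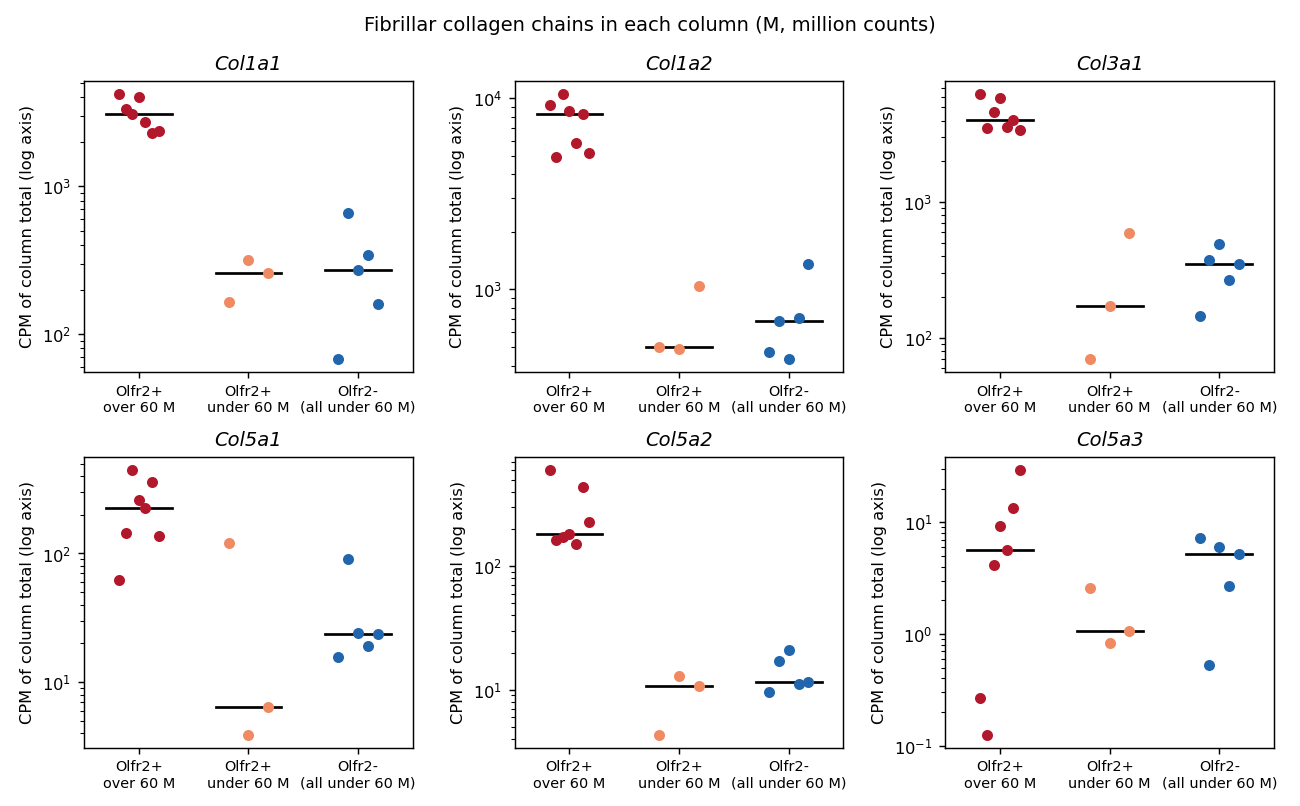
CPM of the column total on log axes for each fibrillar collagen chain, with 1 point per column and a line at the median, for Olfr2+ columns over 60 M counts, Olfr2+ columns under 60 M counts and Olfr2- columns. For Col1a1, Col1a2, Col3a1 and Col5a2 the 7 deep Olfr2+ columns lie above all 8 others, and for Col5a1 and Col5a3 the sets overlap.

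Within the Olfr2+ label, the mean of the deep columns was 12.7 times that of the other columns for Col1a1, 11.04 times for Col1a2, 16.0 times for Col3a1, 29.7 times for Col5a2, 5.35 times for Col5a1 and 5.96 times for Col5a3. Columns 3C and 3D share a library name (Mac_Olfr2plus_3_S2_S14), beside a name of its own for each column, but lie in different depth sets. Their counts did not agree within sampling noise (chi-square of 2257 per degree of freedom), so they are not taken as repeat reads of the same library. Col3a1 was at 3425 CPM in 3C and at 70.0 CPM in 3D, a ratio of 48.9, and the ratio was 52.2 for Col5a2, 14.3 for Col1a1, 10.3 for Col1a2 and 11.3 for Col5a3. Col5a1 was the exception, at 135.6 CPM in 3C and 120.5 CPM in 3D.

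Over all columns, Col1a1, Col1a2, Col3a1 and Col5a2 were called higher in Olfr2+, 4 of 6 chains where 1.12% of all genes tested were called higher, and none of the 6 was called lower, where 0.46% of all genes were. limma-voom called none of the 4 (adjusted p from 0.102 to 0.113), and nor did edgeR on genes averaging at least 10 CPM with TMM recomputed, where their log2 fold changes ran from 2.41 to 3.28 (adjusted p from 0.227 to 0.248). These fits called 0 of all genes, of 24362 with limma-voom and of 8504 with that filter. Counts summed per numbered sample were tested with edgeR's quasi-likelihood F test at a Benjamini-Hochberg adjusted p under 0.05 over all 24362 genes that passed the filter on low counts, which all 6 chains did. Levels are given as CPM of the sample total and fold changes come from the fit, whose TMM scaling is meant to adjust for composition. The TMM factors ran from 0.485 (Olfr2+ sample 2) to 1.66 (Olfr2- sample 1), and the size of the fold changes depended on this scaling. Col1a1 averaged 2036 ± 1677 CPM in Olfr2+ and 281 ± 223 CPM in Olfr2- (SD, n = 3 each), and its log2 fold change was 4.19 (SE 0.95) at an edgeR adjusted p of 0.037. Col1a2 averaged 4887 ± 3816 CPM in Olfr2+ and 684 ± 275 CPM in Olfr2- (log2 fold change 4.23, SE 0.80, edgeR adjusted p = 0.028). Col3a1 averaged 2876 ± 2357 CPM in Olfr2+ and 288 ± 137 CPM in Olfr2- (log2 fold change 4.68, SE 0.90, edgeR adjusted p = 0.028). These 3 chains form the bulk of ordinary fibrils, and the spread within Olfr2+ was of the size of the mean for each. Col5a2 averaged 173 ± 141 CPM in Olfr2+ and 13.1 ± 4.80 CPM in Olfr2- (log2 fold change 5.07, SE 1.26, edgeR adjusted p = 0.044).

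The remaining type V chains did not pass. Col5a1 averaged 153 ± 129 CPM in Olfr2+ and 34.4 ± 27.7 CPM in Olfr2- (log2 fold change 3.45, SE 1.24, edgeR adjusted p = 0.090), although DESeq2 called it (adjusted p = 0.031). Col5a3 averaged 6.18 ± 7.01 CPM in Olfr2+ and 4.53 ± 2.41 CPM in Olfr2- (log2 fold change 1.68, SE 1.52, edgeR adjusted p = 0.407). The 6 chains had a median log2 fold change of 4.21, beside 0.24 over all genes tested. With library totals in place of TMM the medians were 2.85 for the chains and -0.87 for all genes, and Col1a2 and Col3a1 remained called (edgeR adjusted p = 0.046 and 0.045), where 80 of all 24362 genes were called higher. Without Olfr2+ sample 2, which holds 4 of the deep columns, edgeR called none of the 6, with log2 fold changes of 3.06 for Col1a1, 3.26 for Col1a2, 3.62 for Col3a1 and 4.24 for Col5a2 and adjusted p from 0.098 to 0.159. Of all 29390 genes tested in that fit, only 6 were called higher and 0 lower. The call of Col5a2 was also lost without any other single sample except Olfr2+ sample 4.

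Among the columns under 60 M counts, where both labels occur at similar depth, none of the 6 chains was called. This comparison set Olfr2+ samples 3 and 4 against Olfr2- samples 1, 3 and 4. Col1a1 was at 166 and 291 CPM in Olfr2+ samples 3 and 4, and at 68.1, 513 and 263 CPM in Olfr2- samples 1, 3 and 4. Col1a2 was at 499.7 and 736 CPM in Olfr2+, and at 469, 588 and 994 CPM in Olfr2-. Both Olfr2+ values lay inside the Olfr2- range for either type I chain. Col3a1 was at 70.0 and 360 CPM in Olfr2+ samples 3 and 4, and at 144, 417 and 304 CPM in Olfr2- samples 1, 3 and 4, with the labels interleaved. Among the type V chains, Col5a1 was at 120.5 and 4.996 CPM in Olfr2+ samples 3 and 4, and at 15.6, 66.2 and 21.2 CPM in Olfr2- samples 1, 3 and 4. Col5a2 was at 4.34 and 11.9 CPM in Olfr2+, and at 9.51, 18.6 and 11.3 CPM in Olfr2-, and Col5a3 was at 2.60 and 0.934 CPM in Olfr2+, and at 7.22, 2.57 and 3.80 CPM in Olfr2-. The 2 Olfr2+ values of Col5a1 lay on either side of the Olfr2- range, and those of Col5a2 and Col5a3 were in its lower part or below it.

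The log2 fold changes in these columns were 0.39 for Col1a1 (SE 1.08), 0.65 for Col1a2 (SE 0.81), 0.34 for Col3a1 (SE 1.07), 1.49 for Col5a1 (SE 1.47), 0.08 for Col5a2 (SE 1.45) and -0.49 for Col5a3 (SE 1.15). The edgeR adjusted p ran from 0.730 for Col5a1 to 0.987 for Col5a2, and the smallest unadjusted p was 0.323. With library totals the log2 fold changes of Col1a1, Col1a2, Col3a1 and Col5a2 were below 0, so no direction is given for them at matched depth. In the whole comparison edgeR called 0% of 29989 genes, with 3127 at an unadjusted p under 0.05, limma-voom called 0, and DESeq2 called 1043 higher and 213 lower, none of them among the 6 chains. The median log2 fold change was 0.36 for the 6 chains and -0.43 for all genes. With all columns and the depth set as a covariate, edgeR again called 0 of the 6 chains, with log2 fold changes from -0.63 (Col5a3) to 1.39 (Col5a1), and 2610 of all genes had an unadjusted p under 0.05 with 0 called.

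**Figure D2:**
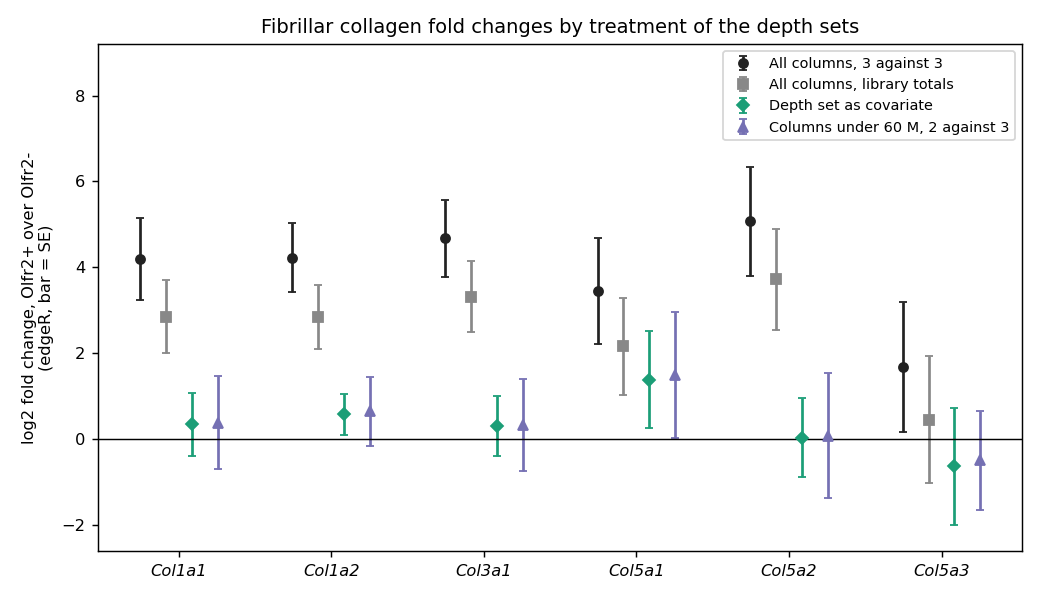
edgeR log2 fold change (Olfr2+ over Olfr2-) of each chain with its standard error as the bar, over all columns with TMM, over all columns with library totals, with the depth set as a covariate, and in the columns under 60 M counts only. Over all columns the values lie between 1.68 and 5.07 with TMM, and with the depth set as covariate or with the columns under 60 M they lie between -0.63 and 1.49.

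Chain proportions were compared per kilobase of the longest coding transcript in GENCODE, which was 5.93 kb for Col1a1, 5.348 kb for Col1a2, 5.564 kb for Col3a1, 8.406 kb for Col5a1, 6.625 kb for Col5a2 and 6.119 kb for Col5a3. In the type I trimer Col1a1 is the major chain, but at the RNA level Col1a2 exceeded Col1a1 per kilobase in 15 of 15 columns (11 of 15 with the length of all annotated exons). The ratio of Col1a2 to Col1a1 per kilobase had a median of 2.40 (1.62 to 4.03) in deep Olfr2+ columns, 3.33 (1.72 to 4.46) among the other Olfr2+ columns and 2.32 (1.15 to 9.39) in Olfr2- columns. The highest ratios, 7.64 and 9.39, were in Olfr2- columns 1A and 4B. The ratio of Col3a1 to Col1a1 per kilobase had a median of 1.57 (1.12 to 1.90) in deep Olfr2+ columns, 0.585 (0.449 to 2.43) among the other Olfr2+ columns and 1.93 (0.606 to 2.32) in Olfr2- columns.

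Per kilobase, the order of median levels in the deep Olfr2+ columns was Col1a2 (1548 CPM per kb), Col3a1 (731), Col1a1 (517), Col5a2 (27.2), Col5a1 (26.8) and Col5a3 (0.928). In the other Olfr2+ columns the medians were 93.4 CPM per kb for Col1a2, 43.9 for Col1a1, 31.1 for Col3a1, 1.61 for Col5a2, 0.756 for Col5a1 and 0.175 for Col5a3. In the Olfr2- columns the medians were 127.3 CPM per kb for Col1a2, 62.9 for Col3a1, 45.4 for Col1a1, 2.84 for Col5a1, 1.73 for Col5a2 and 0.856 for Col5a3. In the deep Olfr2+ columns and in the Olfr2- columns, neighbours in this order overlapped in range among the type I and III chains and between Col5a1 and Col5a2, while type V chains lay below the type I and III chains, and Col5a3 below the other two. The type V chains made up a median of 2.36% of the 6 chains per kilobase in deep Olfr2+ columns, 1.43% among the other Olfr2+ columns and 3.16% in Olfr2- columns. In Olfr2+ column 3D they reached 10.3%, with Col5a1 at 21.9 times Col5a2 per kilobase.

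Correlations between chains differed with the pair and with the depth set. The Pearson correlations of log2(CPM + 1), scaled with TMM factors, had a median over all 15 pairs of 0.508 among the 7 deep Olfr2+ columns and of 0.0356 among the 8 columns under 60 M. For the 6 pairs of the called chains Col1a1, Col1a2, Col3a1 and Col5a2 they ran from 0.789 to 0.974 in the deep columns and from 0.265 to 0.820 in the others. The 4 pairs of Col5a1 with these chains ran from 0.299 to 0.675 in the deep columns and from -0.190 to 0.253 in the others. The 5 pairs with Col5a3 ran from -0.286 to 0.469 in the deep columns and from -0.872 to -0.0874 in the others. These are descriptions only, since columns of 1 numbered sample may share a source, and the level of every gene shares the scaling of its column.

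The genes lie on separate chromosomes except for Col3a1 and Col5a2, which are neighbours on chromosome 1. In the GENCODE annotation of GRCm38 they point towards each other with 24.6 kb between them and 0 annotated genes in the gap. Col1a1 is on chromosome 11, Col1a2 on 6, Col5a1 on 2 and Col5a3 on 9. Exons of Col5a1 overlap those of 2810430I11Rik, a noncoding gene on the opposite strand, and the library type does not keep the strand. That gene had 11081 counts in Olfr2+ column 2C and at most 124 in each of the 14 other columns, and 2C is also the column with the most Col5a1 (446 CPM), so the share of those reads that belongs to either gene cannot be told apart.

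The upstream bases of Col1a2 and Col3a1, which edgeR called over all columns, are shown beside those of Col5a1 and Col5a3, which it did not call, so that their composition can be compared. They are the 250 bases before the annotated start in the RefSeq table of GRCm38.p6, which held 4 of the 6 chains, printed 5′ to 3′ on the strand of the gene. Capitals mark TATAAA (the TATA box), CCAAT (the CCAAT box), GGGCGG (the GC box) and CAGACA (the core of a Smad binding element), on either strand, and no marked stretches overlap. Col1a2 is chr6:4505368-4505617 (+), Col3a1 is chr1:45311288-45311537 (+), Col5a1 is chr2:27886175-27886424 (+) and Col5a3 is chr9:20815068-20815317 (-).
Col1a2: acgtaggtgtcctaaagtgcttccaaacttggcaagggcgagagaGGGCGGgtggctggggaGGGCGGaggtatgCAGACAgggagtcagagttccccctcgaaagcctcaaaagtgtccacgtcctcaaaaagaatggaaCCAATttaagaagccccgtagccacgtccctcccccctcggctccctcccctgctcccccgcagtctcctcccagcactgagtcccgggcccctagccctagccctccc
Col3a1: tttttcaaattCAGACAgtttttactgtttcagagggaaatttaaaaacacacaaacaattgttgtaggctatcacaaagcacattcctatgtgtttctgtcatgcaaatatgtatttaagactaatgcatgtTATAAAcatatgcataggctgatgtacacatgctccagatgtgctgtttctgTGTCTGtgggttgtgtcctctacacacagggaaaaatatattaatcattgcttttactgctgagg
Col5a1: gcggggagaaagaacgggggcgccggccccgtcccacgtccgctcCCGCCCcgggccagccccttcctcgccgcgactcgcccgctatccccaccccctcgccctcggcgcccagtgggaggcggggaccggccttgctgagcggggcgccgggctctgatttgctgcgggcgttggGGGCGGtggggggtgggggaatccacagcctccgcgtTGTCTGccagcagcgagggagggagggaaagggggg
Col5a3: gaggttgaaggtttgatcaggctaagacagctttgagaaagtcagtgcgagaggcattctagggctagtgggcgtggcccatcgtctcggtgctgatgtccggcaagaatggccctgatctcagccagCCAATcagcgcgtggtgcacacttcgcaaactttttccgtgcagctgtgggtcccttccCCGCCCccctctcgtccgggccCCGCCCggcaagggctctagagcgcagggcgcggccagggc
Col1a2 and Col3a1 correlated at 0.970 over the 15 columns, which span the depth sets, and at 0.609 over the 8 columns under 60 M. Their upstream sequences differed in composition, and any part of the sequence in the levels was not tested. Col3a1 had 35.2% G and C, TATAAA from base -117 to -112 and CAGACA in 2 places, while Col1a2 had 62% G and C, CCAAT from base -109 to -105, GGGCGG in 2 places, CAGACA in 1 and no TATAAA. Col5a1 had 76.4% G and C with GGGCGG in 2 places and CAGACA in 1, and Col5a3 had 62.8% with CCAAT from base -122 to -118 and GGGCGG in 2 places. Over all 32851 promoters of the table, in windows of the same length, the median was 52.4% G and C, and 12.4% held TATAAA, 33.8% CCAAT, 32.7% GGGCGG and 17.1% CAGACA.

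Genes that make, bind or degrade collagen were described in 8 lists by role, with 77 genes in all. Over all columns edgeR called 13 higher and 0 lower, beside 1.12% and 0.46% of all genes, and the median over all genes was 0.24. At an unadjusted p under 0.05 there were 48 of the 77, beside 7821 of 24362 among all genes. DESeq2 called 39 higher and 4 lower, where it called 4017 higher and 2690 lower among all 28701 genes it tested. limma-voom and TMM recomputed at 10 CPM called 0 of these and 0 of all genes, and the replicate block left 1, and 2 of all genes. Library totals left 11 higher, with Ppib and Tgfb3 no longer called, 1 lower (Col27a1) and every list median on the same side of 0, beside 80 higher and 256 lower of all 24362 genes. Without Olfr2+ sample 2 only Dcn of the 77 was called, beside 6 of all 29390 genes. In the columns under 60 M edgeR called 0 of the 77 (3 at an unadjusted p under 0.05, beside 3127 of 29989 among all genes), with a median of -0.43 for all genes, limma-voom called 0, and DESeq2 called 3 higher (Thbs2, Ddr1 and Creb3l1) and 1 lower (Col27a1). Among single columns under 60 M, Thbs2 ran from 1.92 to 126 CPM in Olfr2+ and from 2.54 to 7.79 CPM in Olfr2-. Ddr1 ran from 2.93 to 29.7 CPM in Olfr2+ and from 0.676 to 10.8 CPM in Olfr2-. Olfr2+ sample 4, at 4.85 CPM of Thbs2 and 10.5 CPM of Ddr1, lay inside both Olfr2- ranges. Library totals turned the list medians in the columns under 60 M below 0 for modification and folding, receptors and regulators.

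Chain modification came first in the pathway. The enzymes and chaperones that hydroxylate and fold the chains numbered 18, of which 1 rose and 0 fell over all columns, with a median log2 fold change of 3.26. The one that rose was Ppib (cyclophilin B, a prolyl isomerase of the collagen 3-hydroxylation complex), at 78.9 ± 67.4 CPM in Olfr2+ and 3.72 ± 0.814 CPM in Olfr2- (SD, n = 3 each), and its log2 fold change was 5.76 (SE 1.49) at an edgeR adjusted p of 0.048. Serpinh1, the chaperone of collagen chains, was at 291 ± 196 CPM in Olfr2+ and 71.4 ± 61.8 CPM in Olfr2- and did not pass (log2 fold change 3.37, SE 1.09, edgeR adjusted p = 0.077). P4hb, the subunit of prolyl 4-hydroxylase also known as protein disulfide isomerase, had a log2 fold change of 2.53 (SE 0.95) and Pdia3, another disulfide isomerase, 2.10 (SE 0.94), and neither passed. In the columns under 60 M these 4 had log2 fold changes from -0.42 (Ppib) to 1.16 (Pdia3), and the list median was 0.41.

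Of the 7 genes of procollagen cleavage, 3 rose and 0 fell, with a median log2 fold change of 2.46. Adamts2, which removes the amino-terminal propeptide, was at 566 ± 515 CPM in Olfr2+ and 24.9 ± 9.96 CPM in Olfr2- (log2 fold change 5.90, SE 1.14, edgeR adjusted p = 0.028). Pcolce, which enhances the removal of the carboxy-terminal propeptide, was at 624 ± 574 CPM in Olfr2+ and 44.6 ± 28.8 CPM in Olfr2- (log2 fold change 5.22, SE 1.13, edgeR adjusted p = 0.032). Bmp1, the protease that makes that cut, was at 239.8 ± 162 CPM in Olfr2+ and 9.62 ± 3.94 CPM in Olfr2- (log2 fold change 5.98, SE 1.19, edgeR adjusted p = 0.028). The fourth gene named by level, Pcolce2, had a log2 fold change of 2.46 (SE 1.14) and did not pass. In the columns under 60 M the log2 fold changes were 3.15 for Bmp1 (SE 1.56), 1.338 for Adamts2 (SE 1.43) and 0.28 for Pcolce (SE 1.41). The list median there was -0.12. Bmp1 ran from 3.52 to 209 CPM among the Olfr2+ columns under 60 M and from 5.94 to 23.9 CPM in the Olfr2- columns, so these overlapped.

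Of the 5 lysyl oxidases, which cross-link the fibrils, 1 rose and 0 fell, with a median log2 fold change of 3.87. Loxl1 was at 434 ± 412 CPM in Olfr2+ and 20.8 ± 11.7 CPM in Olfr2- (log2 fold change 5.78, SE 1.20, edgeR adjusted p = 0.028). Lox was at 146 ± 108 CPM in Olfr2+ and 26.7 ± 7.09 CPM in Olfr2- and did not pass (log2 fold change 3.87, SE 1.14, edgeR adjusted p = 0.065), nor did Loxl3 (5.04, SE 1.38, adjusted p = 0.055). Among the columns under 60 M the log2 fold changes were 0.90 for Loxl1, 1.00 for Lox and 1.65 for Loxl3 (SE 1.48, 1.38 and 1.39), and the list median was 0.90.

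Of 11 proteins that bind to or assemble with fibrils, 5 rose and 0 fell, with a median log2 fold change of 4.95. They were Col14a1, a collagen that lies on the fibril surface, with a log2 fold change of 4.95 (SE 1.02), and the leucine-rich proteoglycans Dcn (4.09, SE 0.69), Bgn (5.14, SE 1.02), Lum (5.57, SE 1.19) and Fmod (6.06, SE 1.28), with edgeR adjusted p from 0.018 to 0.029. Col14a1 was at 957 ± 734 CPM in Olfr2+ and 77.7 ± 38.5 CPM in Olfr2-, and Lum at 514 ± 433 CPM in Olfr2+ and 27.8 ± 11.3 CPM in Olfr2- (SD, n = 3 each). Sparc, a collagen-binding glycoprotein, at 3024 ± 2440 CPM in Olfr2+ and 1398 ± 284 CPM in Olfr2-, and Fn1 (fibronectin), at 1780 ± 1063 CPM in Olfr2+ and 815 ± 176 CPM in Olfr2-, did not pass. In the columns under 60 M the 5 genes called over all columns had log2 fold changes from 0.40 (Fmod) to 2.37 (Lum), and the list median was 0.97. Lum ran there from 16.7 to 157 CPM in Olfr2+ and from 14.8 to 36.1 CPM in Olfr2-. Olfr2+ sample 4, at 21.6 CPM of Lum, lay inside the Olfr2- range.

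Of the 6 proteases that degrade collagen, 1 rose and 0 fell, with a median of 2.08. Mmp2, a gelatinase made chiefly by stromal cells, was at 1002 ± 933 CPM in Olfr2+ and 40.3 ± 19.8 CPM in Olfr2- (log2 fold change 6.05, SE 1.20, edgeR adjusted p = 0.028), but its log2 fold change was -0.37 (SE 1.42) in the columns under 60 M, where the list median was -0.28. Mmp14, the membrane protease that activates it, had log2 fold changes of 1.77 (SE 0.98) over all columns and -0.20 (SE 1.38) under 60 M, and Ctsk, the collagenolytic cathepsin, 5.45 (SE 1.47) and -0.49 (SE 1.23), and neither passed. Of 11 collagen receptors and uptake receptors, 0 rose and 0 fell with edgeR, where 3 had an unadjusted p under 0.05, limma-voom called 0 and DESeq2 called 4 higher (Ddr1, Ddr2, Itga11 and Mrc2). The share at that p was below the share of all genes. Their median log2 fold change was 1.86 over all columns and 0.16 under 60 M. Mrc1, the macrophage mannose receptor that also takes up collagen fragments, was at 229 ± 78.6 CPM in Olfr2+ and 156 ± 78.3 CPM in Olfr2-, and Ddr2, a receptor kinase for fibrillar collagen, was at 273 ± 217 CPM in Olfr2+ and 47.4 ± 54.4 CPM in Olfr2-. Itgb1, the shared beta subunit of the collagen-binding integrins, was at 316 ± 91.8 CPM in Olfr2+ and 316 ± 153 CPM in Olfr2-.

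Of 14 genes that regulate collagen transcription, 2 rose and 0 fell, with a median log2 fold change of 1.88. Creb3l1, a membrane-bound factor that activates type I collagen genes, was at 149.6 ± 40.5 CPM in Olfr2+ and 5.71 ± 0.562 CPM in Olfr2- (log2 fold change 5.96, SE 1.22, edgeR adjusted p = 0.028). It was at 175, 171 and 103 CPM in Olfr2+ samples 2, 3 and 4, and at 5.68, 6.29 and 5.17 CPM in Olfr2- samples 1, 3 and 4, so the labels did not overlap, a pattern that 6.21% of all genes had. Among single columns under 60 M it ran from 4.37 to 146.5 CPM in Olfr2+ and from 2.99 to 11.8 CPM in Olfr2-, with a log2 fold change of 4.08 (SE 1.58) that DESeq2 called and edgeR did not (adjusted p = 0.442). Tgfb3, a ligand of the TGF-beta pathway, was at 91.3 ± 122 CPM in Olfr2+ and 4.48 ± 1.37 CPM in Olfr2- (log2 fold change 5.87, SE 1.52, edgeR adjusted p = 0.048), and had -0.87 (SE 1.16) under 60 M. Sp1, which binds GC boxes, had a log2 fold change of -0.23 (SE 1.13) and the receptor Tgfbr2 one of 3.01 (SE 1.04), and neither passed. The list median under 60 M was 0.80.

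The 5 other fibrillar collagens, chains mainly of cartilage and of restricted tissues, were at low levels and 0 rose or fell with edgeR over all columns, where 3 had an unadjusted p under 0.05, limma-voom called 0 and DESeq2 called 3 lower (Col11a1, Col24a1 and Col27a1). Among all genes, 7821 of 24362 had such a p with edgeR, limma-voom called 0, and DESeq2 called 2690 of 28701 lower. The median log2 fold change of the 5 was -3.11, and -0.65 under 60 M. Together they summed to 0.184 to 31.6 CPM in deep Olfr2+ columns, 6.02 to 74.3 CPM among the other Olfr2+ columns and 14.2 to 207 CPM in Olfr2- columns. Col27a1 was at 1.35 ± 1.01 CPM in Olfr2+ and 65.6 ± 46.8 CPM in Olfr2- (log2 fold change -4.65, SE 1.51, edgeR adjusted p = 0.077). Its log2 fold change was opposite in sign to those of the type I and III chains and was -3.73 (SE 1.72) in the columns under 60 M. Col11a2, a chain of type XI collagen, was at 16.8 ± 21.1 CPM in Olfr2+ and 3.93 ± 2.52 CPM in Olfr2-, with log2 fold changes of 3.00 (SE 1.65, edgeR adjusted p = 0.193) over all columns and 3.39 (SE 1.63) under 60 M. It reached 31.2 CPM in the deep Olfr2+ columns, 71.9 CPM among the other Olfr2+ columns and 6.82 CPM in the Olfr2- columns, and so made up most of the highest sums of the list in Olfr2+. Col11a1, another type XI chain, was at 0.182 ± 0.124 CPM in Olfr2+ and 3.78 ± 3.00 CPM in Olfr2- (log2 fold change -3.29, SE 1.48, edgeR adjusted p = 0.133).

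**Figure D3:**
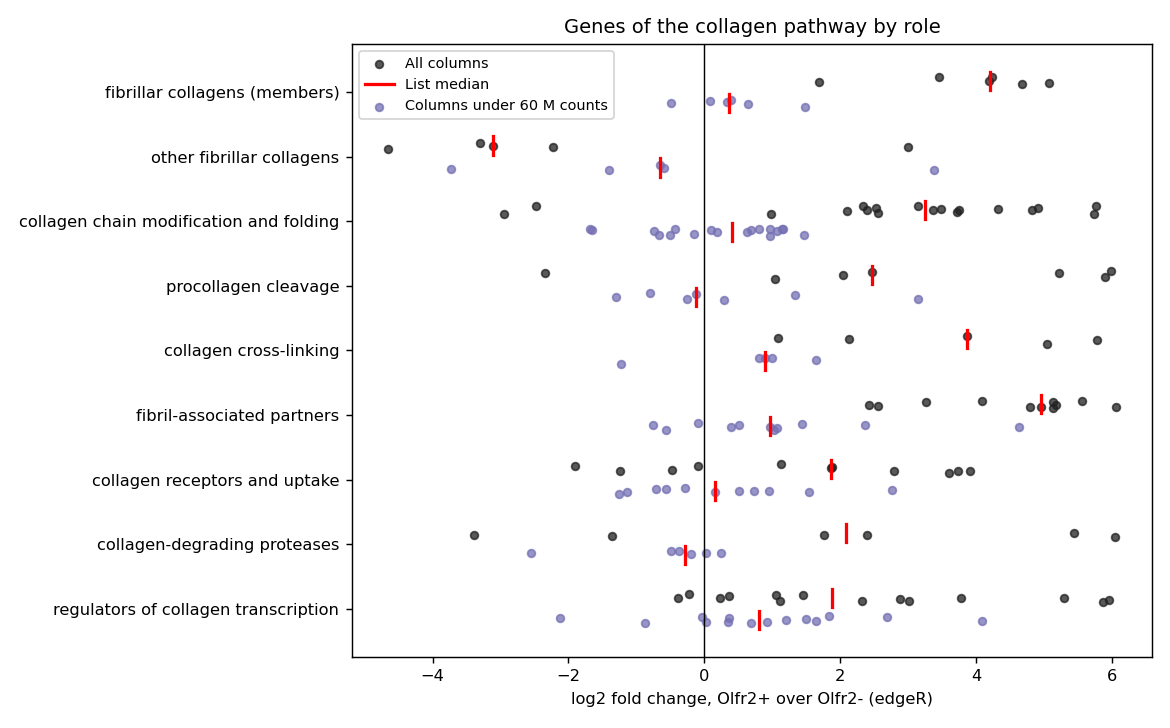
edgeR log2 fold change (Olfr2+ over Olfr2-) of each tested gene in the fibrillar collagens and the lists by role, over all columns (dark points) and in the columns under 60 M counts (violet points), with a red line at each list median. The median of the 6 chains is 4.21 over all columns and 0.36 under 60 M, and the medians of all lists lie between -0.65 and 0.97 under 60 M.

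Markers of the sorted cells and of others they could include were also followed. All 12 macrophage genes, markers of the labelled cell type, were detected in every column. They summed to 7760 to 15673 CPM in deep Olfr2+ columns, 3168 to 4412 CPM among the other Olfr2+ columns and 1947 to 8867 CPM in Olfr2- columns. Adgre1 (F4/80) was at 155 ± 91.6 CPM in Olfr2+ and 71.3 ± 64.1 CPM in Olfr2-, and Fcgr1 (CD64) at 36.0 ± 32.0 CPM in Olfr2+ and 8.48 ± 4.996 CPM in Olfr2-. Of this list 4 of 12 rose and 0 fell (Lyz2, C1qb, C1qc and Cd14), beside 1.12% and 0.46% of all genes, while limma-voom called 0 of the list and of all genes. Csf1r, the receptor for macrophage colony-stimulating factor, was at 610.5 ± 223 CPM in Olfr2+ and 429 ± 474 CPM in Olfr2- and did not pass. The list had a median log2 fold change of 2.82 over all columns and 1.00 under 60 M. Detection alone did not set it apart, since all 13 fibroblast markers were also found in every column. In the Olfr2+ columns under 60 M the 8 B cell markers summed higher than the macrophage genes, to 10363 to 15318 CPM. The B cell sums were also the higher in Olfr2- columns 1A, 3A, 3B and 4A, at 12663, 7214, 3726 and 2415 CPM. The macrophage sums in those columns were 1947, 4207, 2551 and 2028 CPM. Only in Olfr2- column 4B was the B cell sum the lower, at 2482 CPM beside 8867 CPM.

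Fibroblast markers were high in the same columns as the collagens. 12 markers, all 12 found in every column, summed to 5796 to 8612 CPM in deep Olfr2+ columns, 737 to 1625 CPM among the other Olfr2+ columns and 380 to 1109 CPM in Olfr2- columns. Gsn was left out of this sum because macrophages also express it. Of the 13, 6 rose and 0 fell (Pdgfra, Pi16, Scara5, Serpinf1, Mfap5 and Gsn), beside 1.12% and 0.46% of all genes. The log2 fold change over all columns was above 0 for 12 of the 13, with a median of 3.56, and the median was 0.87 under 60 M. With library totals 0 of the macrophage genes and 6 of the fibroblast markers were called, where 80 of all 24362 genes were called higher. Without Olfr2+ sample 2 these counts were 0 and 1 (Gsn), where 6 of all 29390 genes were called higher. Ly6a, a surface protein of many fibroblasts that other cells also carry, was at 768 ± 477 CPM in Olfr2+ and 229 ± 176 CPM in Olfr2- and did not pass. Pdgfra, a growth factor receptor typical of fibroblasts, was at 354 ± 148 CPM in Olfr2+ and 17.3 ± 4.33 CPM in Olfr2- (log2 fold change 5.54, SE 1.06, edgeR adjusted p = 0.028). Under 60 M its log2 fold change was 3.82 (SE 1.43), and DESeq2 called Pdgfra, Clec3b and Mfap5 there while edgeR (2 at an unadjusted p under 0.05) and limma-voom called 0 of the list. The 10 smooth muscle markers summed to 203 to 638 CPM in deep Olfr2+ columns, 7.37 to 24.6 CPM among the other Olfr2+ columns and 21.5 to 57.6 CPM in Olfr2- columns, with 0 of 10 called by edgeR or limma-voom, 7 at an unadjusted p under 0.05 (7821 of 24362 among all genes), 5 called higher and 1 lower (Cnn1) by DESeq2, and a median log2 fold change of 2.85 (-0.67 under 60 M). The member with the highest mean was Cald1, an actin-binding protein that other cells also make, at 123 to 434 CPM in deep Olfr2+ columns, 3.28 to 8.24 CPM among the other Olfr2+ columns and 9.74 to 29.8 CPM in Olfr2- columns. Smtn and Mylk, of the contractile apparatus, overlapped between these sets, with log2 fold changes over all columns of 4.57 (SE 1.54) and 3.22 (SE 1.53). Of the defining genes, Acta2 was at 6.95 ± 6.82 CPM in Olfr2+ and 1.02 ± 0.623 CPM in Olfr2-, and Myh11 was at 8.87 ± 9.75 CPM in Olfr2+ and 3.76 ± 1.21 CPM in Olfr2-, and in both the deep columns overlapped the others. Cnn1, Des and Myocd, at 1.92, 4.24 and 2.20 CPM or less in every column, had log2 fold changes below 0 (-4.78, -2.80 and -1.84), so the list did not move one way. The summed collagens, the summed fibroblast markers and the summed smooth muscle markers were each higher in every deep column than in any other. So were the sums of the lists for chain modification, procollagen cleavage, cross-linking, fibril-associated partners and collagen-degrading proteases. The part of other cells in the collagen levels was not tested.

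**Figure D4:**
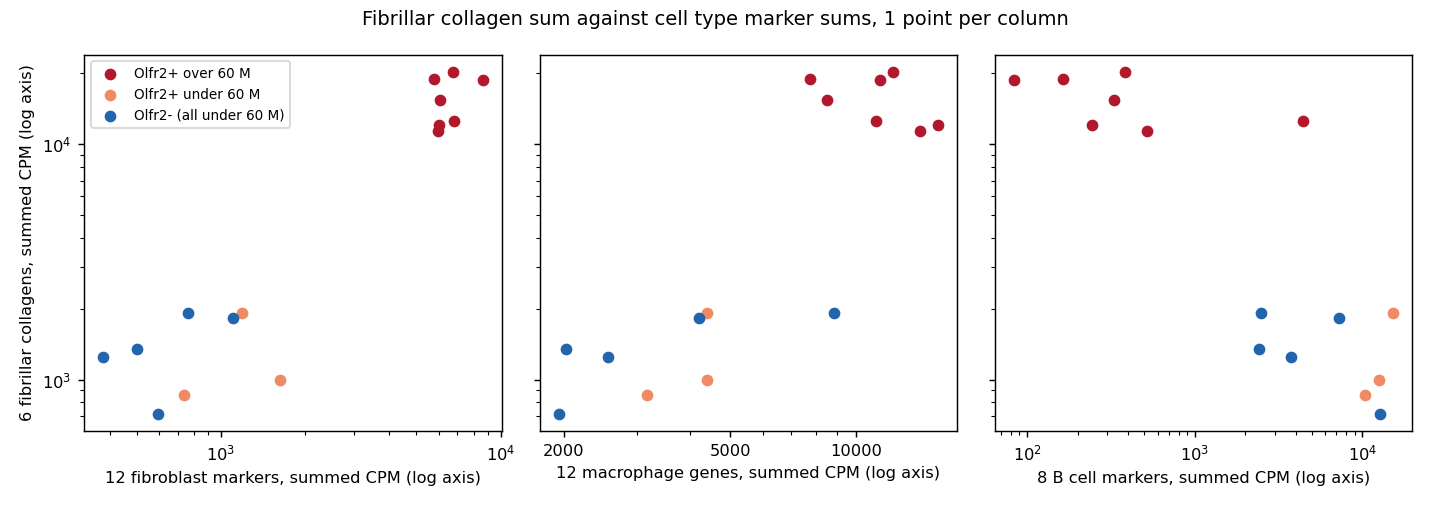
Summed CPM of the 6 fibrillar collagens against the summed CPM of 12 fibroblast markers, 12 macrophage genes and 8 B cell markers, with 1 point per column and log axes. The 7 deep Olfr2+ columns stand apart at high fibroblast marker sums (5796 to 8612 CPM), and the other Olfr2+ and the Olfr2- columns lie together at 1625 CPM or less.

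The genes most like the collagens over all 15 columns, by correlation of log2(CPM + 1) with the mean of the 6 chains among 8741 genes averaging at least 10 CPM over these columns, were Ppp1ca (0.987), Ntrk2 (0.986), Tubb4b (0.986), Flrt2 (0.986), Emc4 (0.984), Fhl1 (0.983), Prelp (0.982), C3 (0.981), Mmp2 (0.980) and Aebp1 (0.978). These values span the gap between depth sets, and each of these genes was higher in every deep column than in any other. Over the 8 columns under 60 M the most alike were Crispld2 (0.951), Mrpl17 (0.951), Smap1 (0.935), Itgb5 (0.932), Sult1a1 (0.929), Sf3b1 (0.919), Ntrk2 (0.907), Postn (0.903), Acot13 (0.903) and Insl6 (0.901). Ntrk2 was the only gene in both lists. The candidates of the second list were the same 8741 genes, filtered on their mean over all 15 columns. Sult1a1, Acot13 and Postn averaged only 1.40, 1.27 and 3.62 CPM in the 8 columns, so they passed that filter through the deep columns. As the highest of 8741 values over 8 columns, the correlations of the second list are descriptions only.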

How the data were processed

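The deposited values were raw counts of reads per gene, whole numbers that the authors had not normalized. Their 15 columns were matched to samples by the library name of each single column. Another library name, shared by columns such as 3C and 3D, takes 8 values, and sums per library name use it. STAR 2.7.1, DRAGEN, DESeq2 1.34 and the build GRCm39 appear in the submitters' processing notes, with no step named for any of them. Neither the strand setting nor an annotation release is given in the sources consulted. Per the labels' protocols, cDNA had 18 PCR cycles and the library 9 more, and reads carry no molecular identifiers, so a count is not a molecule.

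Counts were summed per numbered sample (67.5 to 363.9 M in Olfr2+ and 30.5 to 85.0 M in Olfr2-) and tested with edgeR 4.0.16 in R 4.3.3 (TMM, filter on low counts by group, Benjamini-Hochberg adjusted p under 0.05). Each standard error came from the F statistic. No pair of columns agreed within sampling noise, with a chi-square of at least 573 per degree of freedom over 105 pairs. Gene lengths and neighbours came from GENCODE for GRCm38, whose gene identifiers matched those of the 6 chains. A count of 3 in a column is worth 0.0314 to 0.1004 CPM.

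The chains and the 14 other gene lists were chosen with earlier results of these data known, as was the division at 60 M. Named are the 6 chains, in each list the 3 genes with the highest mean CPM and those that passed, and the 10 genes most alike in profile. Also named, for their part as sort or lineage markers and after their values were seen, are Adgre1, Fcgr1, Acta2 and Myh11, and genes that DESeq2 called (Thbs2, Ddr1, Itga11, Mrc2, Col24a1, Clec3b) or whose direction differed from their list (Cnn1, Des, Myocd). Alternatives were DESeq2 1.42.0, limma-voom (limma 3.58.1), library totals, other filters, columns or library names as replicates, the number of the sample as block, the depth set as a covariate and the omission of each sample. Alternatives within the columns under 60 M, and the length over all exons, were chosen after seeing the data. The fits were tested on simulated data.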

Additional observations from a re-analysis of the deposited data

Results flagged for a closer look

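Col5a1 stood apart in Olfr2- column 3A, at 91.4 CPM, where the next of the 5 Olfr2- columns was at 24.2 CPM. Col5a3 stood apart in Olfr2+ column 3C, at 29.5 CPM, where the next of the 10 Olfr2+ columns was at 13.4 CPM. Each column was picked out by its gap to the nearest other column of its label relative to the whole range. Among 14 such groups of columns examined, chance alone would pick out about 1 in 20 if values were normally distributed. That rate need not hold for CPM, or for Olfr2+ columns that mix the depth sets.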

How the results depend on the processing

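The count of chains called higher, 4 over all columns, was 4 or 5 with DESeq2, without the filter on low counts, with at least 10 CPM and the TMM factors kept, with each column as a replicate and with sums per library name. It was 2 with library totals and 0 with at least 10 CPM and TMM recomputed, with limma-voom, with the columns under 60 M only and with the depth set as a covariate. Leaving out 1 sample at a time gave 0 to 4, with 0 only without Olfr2+ sample 2, and Col5a2 lost its call in 5 of 6 omissions. With the sample number as a replicate block it was 0, and Col1a2 had a log2 fold change of 2.28 (edgeR adjusted p = 0.484), but only numbers 3 and 4 are shared and their samples did not deviate together (correlations of 0.020 and -0.069), so the numbers are not a pairing. The log2 fold change of Col5a3 turned to -0.49 under 60 M and to -0.63 with the covariate. The cause was not tested.

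Over all genes, the calls were 273 higher and 112 lower with edgeR, 4017 and 2690 with DESeq2, 80 and 256 with library totals, 642 and 239 without the filter, 526 and 3 with at least 10 CPM and TMM kept, 0 and 0 with TMM recomputed there and with limma-voom, 649 and 244 by column, 885 and 683 by library name, 2 and 0 with the replicate block, and 0 and 0 under 60 M or with the covariate. Omitting 1 sample gave 6 (without Olfr2+ sample 2) to 973 (without Olfr2+ sample 4) higher and 0 to 113 lower.

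Under 60 M, 0 chains were called in any alternative. Over all genes, edgeR's 0 higher and 0 lower became 1043 and 213 with DESeq2, 150 and 46 without the filter and 10 and 0 with the replicate block. Signs turned for Col1a1 (-0.30 with library totals, -0.32 with at least 10 CPM, -0.064 with the block), Col1a2 (-0.15 and -0.27 with the first and second), Col3a1 (-0.43, -0.59 and -0.49 with the same 3) and Col5a2 (-0.69, -0.86 and -0.33 with these, -0.027 with limma-voom and -0.032 by column). Omitting 1 sample gave -0.23 to 1.35 for Col1a1, -1.45 to 1.13 for Col3a1, -2.01 to 2.60 for Col5a1 and -0.98 to 0.70 for Col5a2. The median correlation between chains was 0.830 over the 15 columns and 0.0356 over the 8 under 60 M. Low counts limit Col5a3, which had 12 and 23 counts in Olfr2+ columns 2B and 2A.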

Other observations

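Lymphocyte and endothelial genes did not run parallel to the collagens. The 8 B cell markers summed to 83.7 to 4408 CPM in deep Olfr2+ columns, 10363 to 15318 CPM in the other Olfr2+ columns and 2415 to 12663 CPM in Olfr2- columns, most of it Ighm, the immunoglobulin heavy chain constant gene, followed by Pax5 and Ms4a1, and the deep range overlapped that of the Olfr2- columns but not that of the other Olfr2+ columns. The 10 endothelial markers summed to 2.04 to 765 CPM in deep Olfr2+ columns, 15.2 to 72.1 CPM in the other Olfr2+ columns and 39.3 to 213 CPM in Olfr2- columns, and the 8 T cell markers to 1.45 to 100.2 CPM, 15.8 to 215.5 CPM and 26.5 to 237 CPM in the same sets of columns. The endothelial genes Pecam1 and Vwf were at 75.5 ± 111 and 9.54 ± 15.3 CPM in Olfr2+ and at 102 ± 56.1 and 6.85 ± 4.11 CPM in Olfr2-, and the T cell genes Lck and Trac at 19.3 ± 24.1 and 2.93 ± 3.71 CPM in Olfr2+ and at 18.0 ± 28.5 and 27.4 ± 22.3 CPM in Olfr2- (SD, n = 3 each). In each of these 3 lists edgeR called 0 genes over all columns, with 0 of 8, 1 of 10 and 1 of 8 at an unadjusted p under 0.05, beside 7821 of 24362 among all genes, and limma-voom 0, while DESeq2 called Tek and Cd2. The lists had median log2 fold changes of 1.47 for B cell, 0.98 for endothelial and 0.13 for T cell markers over all columns, and 1.53, -0.69 and 0.48 under 60 M. Over all columns the endothelial and T cell medians were -0.24 and -0.88 with library totals, so no direction is given for them.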
